A study of Mus musculus with 6 samples.

Results

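Gene desert regions are the accessible regions of lung group 2 innate lymphoid cells (ILC2s) that lie more than 100 kb from the body of any protein-coding gene. They were picked by position alone, from the deposited coordinates (mm10) and the protein-coding genes of RefSeq GRCm38.p6, and the rule used no counts. This set was chosen with earlier results of these data known. There were 3080 desert regions among 57203 counted regions. The cells were sorted as Lin-CD25+ST2+ lymphocytes from the lungs of wild-type mice, female unless otherwise stated, and ATAC-seq mapped their open chromatin through the transposase Tn5, which cuts accessible DNA. The naive group had received PBS over 3 days. The effector group had received 30 µg of papain, a protease allergen, through the nose on each of 3 days, and the memory group had had that course of papain and then 2 months of rest. Each group had 2 libraries, each made from about 50000 cells pooled from 2 to 4 mice, so no value belongs to a single animal. The deposited table holds 11995095 to 20591102 counts per library.

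Gene deserts are long stretches between protein-coding genes that often hold enhancers of the genes at their borders, along with long non-coding RNA (lncRNA) genes. An enhancer is bound by transcription factors, becomes accessible to Tn5 when they are bound, and can act on a promoter far away through looping of the chromosome. ILC2s live in the lung, answer IL-33 released by damaged epithelium with IL-5 and IL-13, and remain in the tissue after the inflammation has ended. A flanking gene named here gives the place of a region, and was not taken to be its target.

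The level of a region is given as TMM-scaled CPM, its count relative to the library total after scaling between libraries. The effect is the log2 fold change (LFC) of edgeR's quasi-likelihood fit. The standard error (SE) printed with it was worked back from the LFC and the F statistic of the test. A call is a region whose p stayed under 0.05 after Benjamini-Hochberg adjustment across 56007 tested regions. Of the desert regions 3018 passed the filter on low counts and 62 did not. The 11 genes on a list of ILC2 markers each had a region at the gene, and these summed to 680 to 878 CPM per library. No region was counted at Cd8a, Cd8b1, Ms4a1, Csf1r, Lyz2, Adgre1, Ncr1, Il23r or Il22, which mark T cells, B cells, myeloid cells, NK cells and ILC3s. The summed myeloid markers were 91.4 to 98.5 CPM in naive and 94.3 to 94.8 in effector libraries, but the region at Itgam, a myeloid integrin, had 0.961 and 0.352 CPM in naive against 4.41 and 2.86 in effector libraries. The mast cell and basophil markers Kit and Cpa3 together had 130 to 140 CPM in naive and 90.8 to 95.6 in effector libraries. The part of other cells in the desert results was not tested.

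Sequence is shown for 4 lncRNA promoters that lie inside desert regions. They were chosen because regions over them are described among the results. They span 250 bases before to 50 bases after the annotated start and are taken from RefSeq (GRCm38.p6). Promoter windows of 111 lncRNA genes overlapped 107 desert regions, 3.47% of the 3080. Capitals mark matches, on either strand, to the GATA motif AGATAA, the AP-1 motif TGANTCA, the RUNX motif TGTGGT and the ETS motif CCGGAAG. A match is a run of letters and not a measured binding site.
Gm33073 (chr13:83120488-83120787, minus strand, in the desert region with the smallest adjusted p between memory and naive cells, 1 RUNX match): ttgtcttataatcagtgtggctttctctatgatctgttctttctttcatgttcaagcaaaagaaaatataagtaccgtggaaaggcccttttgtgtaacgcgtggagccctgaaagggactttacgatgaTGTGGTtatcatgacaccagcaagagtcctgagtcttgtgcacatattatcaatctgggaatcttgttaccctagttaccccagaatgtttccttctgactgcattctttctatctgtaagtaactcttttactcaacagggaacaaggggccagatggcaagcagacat
Gm38326 (chr3:60788111-60788410, plus strand, in a region that rose in effector cells, 2 AP-1 matches and 1 GATA match, one pair of which overlaps by a base): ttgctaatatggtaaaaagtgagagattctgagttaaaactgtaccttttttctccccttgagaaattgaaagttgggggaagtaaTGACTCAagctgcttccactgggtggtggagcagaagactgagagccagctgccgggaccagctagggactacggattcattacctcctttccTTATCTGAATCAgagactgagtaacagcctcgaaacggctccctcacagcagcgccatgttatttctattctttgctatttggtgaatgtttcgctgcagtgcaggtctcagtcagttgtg
Morrbid (chr2:128429302-128429601, minus strand, the lncRNA of the Bcl2l11 desert, 1 ETS and 1 AP-1 match): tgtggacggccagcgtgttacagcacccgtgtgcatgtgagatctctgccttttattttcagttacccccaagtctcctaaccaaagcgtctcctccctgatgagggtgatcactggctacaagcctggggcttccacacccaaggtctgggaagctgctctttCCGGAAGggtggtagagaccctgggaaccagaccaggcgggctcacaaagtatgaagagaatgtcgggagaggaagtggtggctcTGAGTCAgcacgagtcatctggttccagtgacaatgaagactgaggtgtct
Gm36408 (chr6:66272315-66272614, minus strand, in a region that fell in effector cells, 3 GATA matches and 1 RUNX match): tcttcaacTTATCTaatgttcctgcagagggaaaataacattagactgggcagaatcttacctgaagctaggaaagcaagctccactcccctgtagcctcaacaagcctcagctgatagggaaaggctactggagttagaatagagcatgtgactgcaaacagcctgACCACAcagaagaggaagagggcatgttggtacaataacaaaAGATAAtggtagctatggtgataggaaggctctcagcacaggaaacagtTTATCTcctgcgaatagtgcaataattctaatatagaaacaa
An AP-1 match stood in 17.6% of the 125 windows that overlap a desert region and in 7.81% of the 32851 windows of the whole table. The shares were 28.0% and 16.8% for RUNX, 13.6% and 11.2% for GATA and 8.80% and 8.86% for ETS. The 32851 windows were not limited to lncRNA genes, and overlapping windows of one gene, such as those of Gm4718, were counted separately. The differences between these shares were not tested. Of the 105 tested desert regions that overlap a promoter window, 13 rose (12.4%, beside 11.5% of all tested regions) and 11 fell (10.5%, beside 4.98%) from naive to effector cells. The region over the Gm36408 promoter (chr6:66271598-66273097) had 17.8 and 12.4 CPM in naive, 6.10 and 8.94 in effector and 18.2 and 12.9 in memory cells, with an effector LFC of -0.99 ± 0.26 (adjusted p = 0.0134, or 0.164 without effector library 1 and 0.157 without naive library 1). The region over the Morrbid promoter had 97.1 and 79.7, then 151 and 101, then 109 and 78.1 CPM, and its effector LFC of 0.51 ± 0.21 did not pass (adjusted p = 0.122).

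The 3080 regions lay in 617 deserts, each the stretch between a pair of neighbouring protein-coding genes. A single region was found in 216 of these deserts, whereas the 97 deserts with at least 10 regions held 54.8% of the members. The median distance to the nearest protein-coding gene was 183 kb and the longest 1924 kb. Desert regions were slightly narrower than regions with a gene within 100 kb (median 1086 against 1210 bp) and had lower levels (median of the mean CPM 4.00 against 6.17). No annotated gene of any kind overlapped 2126 of them, and 819 overlapped a lncRNA gene. They made up 12.3% of the regions on chromosome 12 and 1.32% of those on chromosome 7. The gene table does not class immunoglobulin and T cell receptor segments as protein-coding, so 100 members lie within 100 kb of such a segment, among them 59 over the immunoglobulin heavy chain locus and 34 over the T cell receptor alpha and delta locus. Near the edge of the rule, chr19:21170632-21171431 was 100027 bp from a gene and was a member, with 1.33 to 4.70 CPM, and chr17:84083438-84083932 was 99992 bp from a gene and was not, with 0.0985 to 1.04 CPM.

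Desert regions held a small part of the counts. Their share of a library's counts was 3.28% and 3.52% in naive, 3.49% and 3.65% in effector and 3.40% and 3.40% in memory cells. The naive and effector libraries overlapped, and both memory libraries lay below both effector libraries. The effector mean was 0.17 percentage points above the naive mean (exact permutation test over libraries, two-sided, p = 0.667, with 0.333 the smallest p that 2 against 2 libraries allow), and the memory mean 0.17 points below the effector mean (p = 0.333 by the same test). Libraries this few could not have shown a change in the share. The Wilson 95% intervals of these shares were at most 0.010 points on either side, and cover counting error only. The highest region lies over the 18S ribosomal RNA record Rn18s-rs5 (chr17:39843034-39848758), with 2360 and 2430 CPM in naive, 2830 and 2970 in effector and 3060 and 2700 in memory cells. Without it the mean shares were 3.16% ± 0.15 (SD, n = 2) in naive and 3.26% ± 0.10 in effector cells.

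The deserts changed in both directions after 3 days of papain. From naive to effector cells 464 desert regions rose, 15.4% of those tested, beside 11.5% of all tested regions. At the same time 234 fell, 7.75%, beside 4.98% of all tested regions. Where a change of at least 2-fold was also asked for, 388 rose (12.9%, beside 9.54% of all) and 98 fell (3.25%, beside 0.691% of all). The median LFC of the desert regions was -0.04 and that of all tested regions 0.00. No test of the difference between desert and other regions was made, so these shares are a description. The counts leaned on effector library 1: without it 183 desert regions rose and 43 fell, and without naive library 1 the counts were 277 and 124. Without naive library 2, 348 rose and 142 fell. Scaling on the 20% of regions with the highest counts gave 589 rises and 111 falls.

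Falling regions were most frequent far from genes. Of regions overlapping a protein-coding gene 5.09% fell, of those up to 10 kb away 3.27%, of those 10 to 50 kb away 4.80%, of those 50 to 100 kb away 5.14%, of those 100 to 200 kb away 6.90%, of those 200 to 500 kb away 8.23% and of the 298 tested regions beyond 500 kb 11.1%. For falls of at least 2-fold the share went from 0.408% at genes to 6.04% beyond 500 kb. The rising regions did not follow this order. They made up 10.3% at genes, 15.8% at 100 to 200 kb, 15.8% at 200 to 500 kb and 11.7% beyond 500 kb. When libraries were scaled on these highest regions, which moved the median LFC of all tested regions to 0.20, the share that fell went from 1.05% at genes to 5.70% beyond 500 kb. With effector library 1 left out it was 0.567% at genes, 1.96% at 200 to 500 kb and 0.990% beyond 500 kb.

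Level is one property in which desert regions differ from the rest, so both were also set side by side within quintiles of the mean CPM of all tested regions. In quintile 3 the share that fell was 8.28% of desert regions and 2.03% of regions near genes. In quintile 5, the highest, it was 22.0% and 14.7%. In quintile 1, the lowest, 20.8% of desert regions and 17.0% of regions near genes rose, and in quintile 3 the shares that rose were 12.9% and 13.1%. Falls were more frequent in deserts in each of the 5 quintiles, whereas for rises the order of quintile 3 was the other way round. The filter on low counts keeps a region that has enough counts in the libraries of a single group. Regions of low mean can therefore be tested through their effector libraries alone. The part of this in the rises and falls of the low quintiles was not tested.

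**Figure D1:**
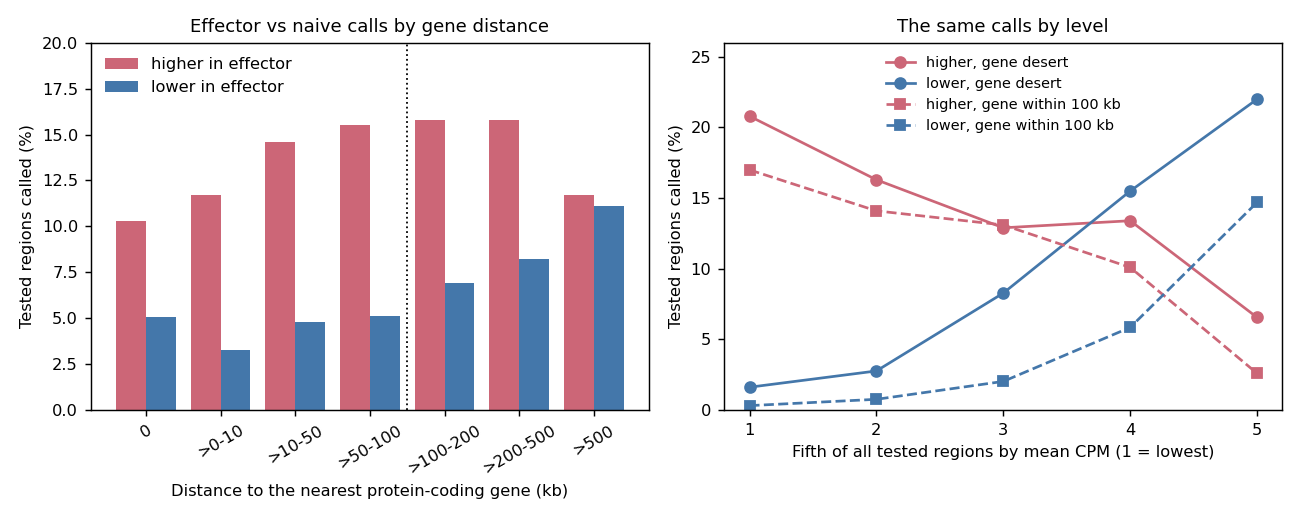
Left, percent of tested regions called between effector and naive cells (bars, no error) by distance to the nearest protein-coding gene in kb, with the desert rule at the dotted line. Right, the same percent within quintiles of mean CPM for desert regions (circles) and regions near genes (squares). The share that fell goes from 5.09% at genes to 11.1% beyond 500 kb.

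The strongest rises were regions that had low levels in naive and in memory cells. The region with the smallest adjusted p, chr18:39893390-39894840 between Pabpc2 (117.3 kb away) and Yipf5 (310.0 kb), had 3.36 and 2.35 CPM in naive, 47.3 and 31.7 in effector and 3.70 and 3.94 in memory cells. Both effector libraries stood above the 4 others. Its LFC from naive to effector was 3.81 ± 0.26 (SE, adjusted p = 7.29e-07), and from naive to memory 0.45 ± 0.28 (adjusted p = 0.665). A region between the potassium channel gene Kcnt2 and Cdc73 (chr1:143099560-143101206, 502.1 kb from Cdc73) had 4.64 and 6.28, then 42.9 and 28.9, then 7.85 and 7.98 CPM. A region between the RNA-binding protein gene Rbms1 and Tank, an adaptor of NF-kB signalling (chr2:61308651-61309803), had 1.60 and 1.06, then 18.4 and 14.5, then 1.68 and 1.43 CPM. Their effector LFCs were 2.70 ± 0.23 (adjusted p = 3.78e-06) and 3.65 ± 0.32 (adjusted p = 4.18e-06).

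The next rises had the same shape. Between Cebpb, a bZIP transcription factor, and the tyrosine phosphatase gene Ptpn1, chr2:167816497-167817982 had 3.60 and 4.64 CPM in naive, 22.9 and 22.5 in effector and 6.08 and 6.79 in memory cells (effector LFC 2.45 ± 0.23, adjusted p = 8.52e-06). Between Rps24 and the transcriptional coregulator gene Zmiz1, chr14:25189192-25189862 had 0.160 and 0.411, then 12.2 and 7.22, then 0.176 and 0.492 CPM. With so few naive counts its effect is given as a ratio of scaled counts, 31.3-fold with an exact 95% counting interval of 16.3 to 69.2 (adjusted p = 1.40e-05). The rises between Sh3bp4 and Agap1, Spring1 and the Mediator subunit gene Med13l, and the myelin gene Pmp22 and Gm29958 had LFCs of 3.70 ± 0.39, 2.30 ± 0.24 and 3.28 ± 0.36. In each of these 8 regions both effector libraries lay above the 4 others, and each call held without any single library.

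The strongest falls were partial, and at most of them memory levels lay near the naive ones. A very open region between the growth factor gene Pdgfc and the protease gene Ctso (chr3:81782250-81783678) had 112 and 92.4 CPM in naive, 42.6 and 52.0 in effector and 106 and 77.1 in memory cells (effector LFC -1.11 ± 0.16, adjusted p = 0.00027). Between the small GTPase gene Rap2b and Arhgef26, chr3:61659321-61660547 had 17.3 and 21, then 5.71 and 9.34, then 22.9 and 22.6 CPM (-1.34 ± 0.23, adjusted p = 0.00066). In both regions the effector libraries stood below the 4 others.

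At a pair of falls the memory level lay between the other groups or near the effector level, with no call against naive. Between Cd24a, which encodes a surface glycoprotein, and Qrsl1, chr10:43757041-43758633 had 23.2 and 21.6 CPM in naive, 7.66 and 11.5 in effector and 13.9 and 10.9 in memory cells. The effector libraries overlapped the memory libraries there, and the memory LFC against naive of -0.86 ± 0.22 did not pass (adjusted p = 0.121). Beside Klf4, a zinc finger transcription factor, chr4:55693554-55694440 had 2.24 and 4.05, then 0.260 and 0.516, then 1.23 and 1.28 CPM, and memory did not pass against naive there either (adjusted p = 0.32). Its naive level was 8.31-fold the effector level (exact 95% counting interval 4.64 to 16.2, adjusted p = 0.00125). The remaining leading falls lay in Lncpint, between Gdf6 and 2610301B20Rik, and between Nxph1 and Ndufa4.

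**Figure D2:**
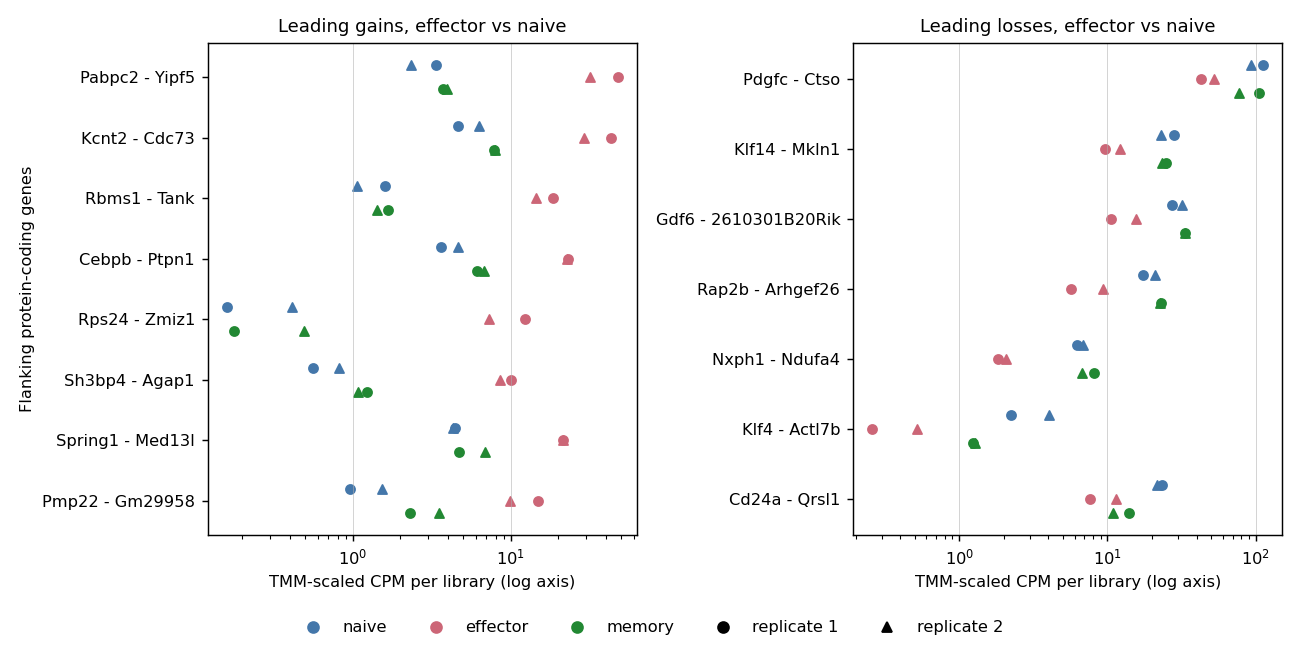
TMM-scaled CPM of each library (log axis) for the 8 leading rises (left) and 7 of the 8 leading falls (right), named by their flanking genes. Colours give the group and shapes the replicate. Both effector libraries lie to the right of the 4 others at each rise, and both lie to the left at the plotted falls except at Cd24a - Qrsl1, where an effector library overlaps the memory libraries.

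The very highest desert regions were not called against naive cells. After the ribosomal RNA region, the highest were chr11:22692324-22693725 between Tmem17 and the glycosyltransferase gene B3gnt2, with 174 to 202 CPM over the 6 libraries, and chr6:31125335-31127339 in Lncpint, with 152 to 193. Next came a region beside Rbpj, the DNA-binding factor of Notch signalling (chr5:53400642-53403271, 151 to 195 CPM), and one beside Ctnnb1, which encodes beta-catenin (chr9:120775809-120777272, 119 to 148 CPM). A region 142.7 kb from Id2 (chr12:25238785-25242514) had 118 to 161 CPM. Of the 8 most open regions, 1 per desert, none was called between naive and effector or between naive and memory cells, and their effector LFCs ran from -0.30 to 0.27. This does not extend to the whole of quintile 5, in which 22.0% of desert regions fell.

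The calls were spread unevenly over the deserts. Rises were found in 211 of the 617 deserts, falls in 156 and both in 60. The desert with the most regions, 75, lies between Celf2 and Gata3, the transcription factor that ILC2s depend on, and 11 of its 74 tested regions rose (14.9%, beside 11.5% of all tested regions) and 1 fell (1.35%, beside 4.98%). Its summed level was 864 and 905 CPM in naive, 985 and 953 in effector and 923 and 980 in memory cells, so effector and memory libraries overlapped. Some of the rises were at regions of very low naive level. At 986.3 kb from Gata3, chr2:8869704-8870780 had 0.320 and 0.940 CPM in naive, 8.18 and 5.67 in effector and 0.529 and 0.394 in memory cells, a 10.1-fold rise by scaled counts (95% counting interval 6.39 to 16.9, adjusted p = 0.00015). Without effector library 1, or without naive library 1, 5 of the 11 rises were called.

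The desert beside Id2, an inhibitor of E proteins that innate lymphoid cells need to form, held 53 regions. Among them 9 rose (17.3% of those tested, beside 15.4% of all desert regions) and 2 fell (3.85%, beside 7.75%). Its most significant rise, chr12:25305499-25306770, 209.4 kb from Id2, had 1.12 and 2.35 CPM in naive, 14.1 and 11.5 in effector and 3.97 and 4.87 in memory cells (effector LFC 2.83 ± 0.33, adjusted p = 3.82e-05). The memory libraries stood between the others there, and their LFC against naive was 1.32 ± 0.35 (adjusted p = 0.132). The falls lay farther out, at 767.6 and 775.9 kb, and the nearer of them had 15.3 and 18.5 CPM in naive, 7.85 and 10.5 in effector and 18.0 and 18.2 in memory cells. Leaving out effector library 1 left 2 rises and no fall, and without naive library 1 there were 5.

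Myc, the growth-promoting transcription factor, borders a desert with 46 regions. Among them 9 rose (20.9% of those tested, beside 15.4% of all desert regions) and 2 fell (4.65%, beside 7.75%). Pvt1, the lncRNA gene downstream of Myc, overlapped 20 of them, with 4 rises and no fall. The desert between Dusp6, a phosphatase that switches off ERK, and Csl had 29 regions, 8 rises and 1 fall, with 3 rises without effector library 1, 4 without naive library 1 and 5 without naive library 2. The desert between Ets1, a transcription factor needed for ILC2 development, and Kirrel3 had 23 regions, 7 rises and no fall, and its summed level was 552 and 565 CPM in naive, 754 and 623 in effector and 545 and 575 in memory cells. Without effector library 1 there were 3 rises in it and without naive library 1 there were 4. None of the 20 regions beside Bcl11b, a factor of ILC2 identity, was called between naive and effector cells. They had 219 and 265, then 218 and 241, then 233 and 278 CPM in sum, and 2 were called higher from effector to memory. The Ets1 and Bcl11b deserts were added after their values were seen, so no contrast is drawn between them.

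The receptor loci, which ILC2s do not need, had few calls. The 59 regions over the immunoglobulin heavy chain variable segments had 2 rises (3.39%, beside 11.5% of all tested regions) and no fall (beside 4.98%), and the 34 over the T cell receptor alpha and delta locus, 33 of them tested, also 2 rises (6.06%) and no fall. From effector to memory 1 heavy chain region was higher and 3 lower, and 3 regions of the T cell receptor locus were higher and 1 lower. The difference of these shares from the rest was not tested. The heavy chain regions summed to 334 and 411 CPM in naive, 388 and 441 in effector and 392 and 449 in memory cells, and the groups overlapped.

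**Figure D3:**
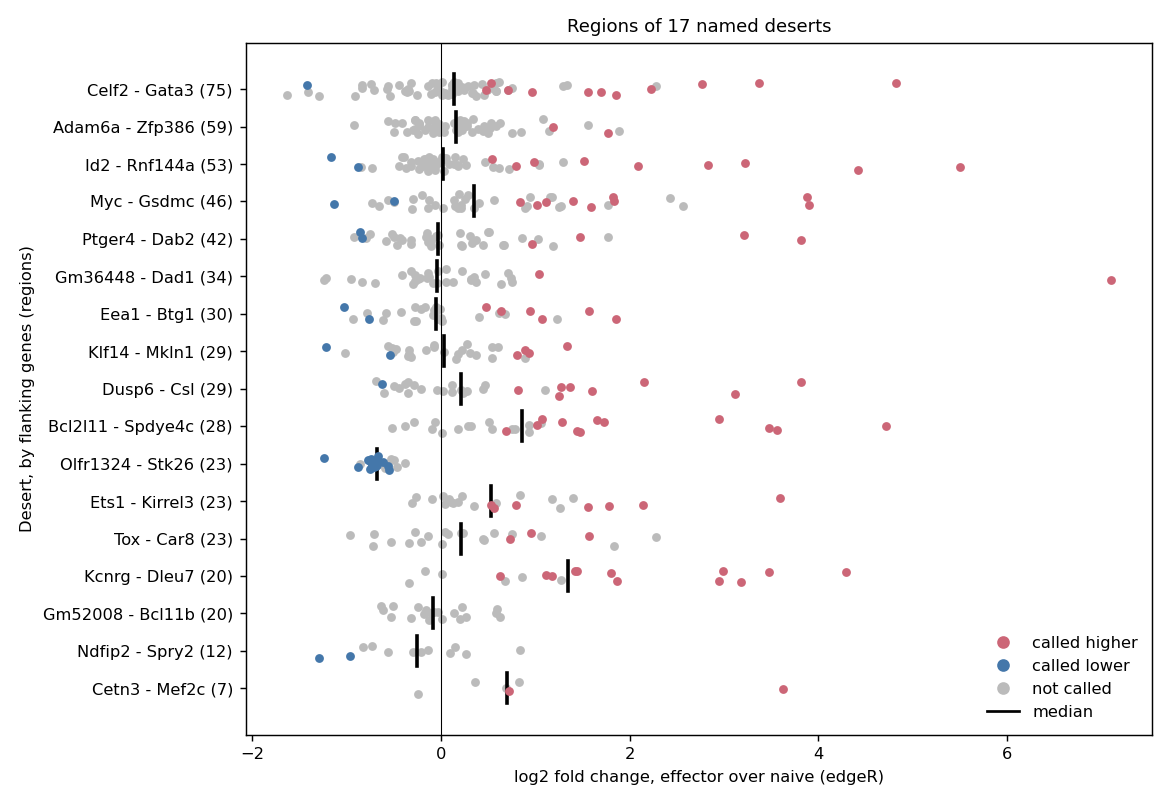
Effector over naive log2 fold change of each tested region in 17 deserts, named by their flanking genes with the number of regions; black bars are medians, and coloured points were called. Points beyond about 4 rest on groups with few counts. The 23 regions between Olfr1324 and Stk26 all lie below 0, with 16 called.

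The desert between Bcl2l11 and Spdye4c had many rises and no fall. Bcl2l11 encodes Bim, a protein that triggers apoptosis, and the lncRNA Morrbid, transcribed from this desert, represses Bcl2l11 in short-lived mouse myeloid cells. Of 28 regions 12 rose from naive to effector (42.9%, beside 11.5% of all tested regions) and none fell, while 5 had an LFC below 0. The median LFC over the desert was 0.86. Its summed level was 276 and 251 CPM in naive, 442 and 373 in effector and 292 and 227 in memory cells, with the effector libraries above the 4 others. The most open of the rising regions, chr2:128294556-128296171, had 53.0 and 47.3, then 86.8 and 74.7, then 53.0 and 36.3 CPM (LFC 0.69 ± 0.16, adjusted p = 0.00772).

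Morrbid itself overlapped 20 of these regions, of which 6 rose (30.0%, beside 15.4% of all desert regions) and none fell. One of them, chr2:128377209-128380916, had 7.45 and 7.17 CPM in naive, 24.3 and 22.0 in effector and 15.6 and 16.5 in memory cells. It rose in effector cells (LFC 1.66 ± 0.19, adjusted p = 3.45e-05) and was above naive in memory cells too (LFC 1.14 ± 0.20, adjusted p = 0.0173), with the groups apart. The memory call was lost without naive library 1 (adjusted p = 0.130), naive library 2 (0.0792) or memory library 2 (0.160). A second cluster of 4 rises overlapped the lncRNA gene Gm36154, 286.3 to 302.8 kb from Bcl2l11. The desert had 5 rises instead of 12 without effector library 1.

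The desert between Kcnrg and Dleu7, a gene named for deletions in lymphocytic leukaemia, rose along much of its length. Its 20 regions summed to 84.4 and 91.9 CPM in naive, 184 and 175 in effector and 110 and 116 in memory cells, and the groups did not overlap. Of 18 tested regions 12 rose in effector cells and none fell, and with any single library left out 8 to 13 rose. Of all desert regions 15.4% rose and 7.75% fell. At 505.3 kb from Kcnrg, chr14:62118174-62119194 had 1.12 and 1.17, then 12 and 8.99, then 0.265 and 0.394 CPM (effector LFC 3.18 ± 0.36, adjusted p = 2.63e-05). At 165.2 kb, chr14:61778080-61779790 followed another course, with 21.3 and 23.0, then 37.0 and 31.7, then 39.6 and 40.9 CPM. It was above naive in effector (LFC 0.63 ± 0.15, adjusted p = 0.00853) and in memory cells (LFC 0.86 ± 0.15, adjusted p = 0.0191), a memory call that was lost without naive library 1, naive library 2 or memory library 2.

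The X-linked desert between Olfr1324 and Stk26 had lower levels in effector cells along its length. It holds Firre, a lncRNA gene with a tandem repeat that binds the chromatin protein CTCF. Of the 23 regions in this desert 16 fell and none rose (beside 7.75% and 15.4% of all desert regions). All 23 had a lower effector than naive level, with a median LFC of -0.67. Firre overlapped 18 of the regions and 13 of the falls. The desert summed to 886 and 696 CPM in naive, 485 and 502 in effector and 770 and 621 in memory cells. The effector libraries lay below the others, and naive and memory libraries overlapped. Within Firre, chrX:50611760-50612955 had 83.3 and 70.9, then 45.6 and 47.3, then 73.4 and 59.9 CPM (effector LFC -0.73 ± 0.14, adjusted p = 0.00177).

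The Firre falls were shallow and sensitive to the settings. There were 3 of them without effector library 1, without naive library 1 there were 2 and without effector library 2 there were 10. Scaling on the 20% highest regions left 6, the loess offset 11 and total counts 12, and none of these settings called a rise. Of the 111 tested desert regions on the X chromosome 24 fell and 6 rose, so that 16 of the 24 falls are these neighbouring regions. The X chromosome as a whole leaned the same way: of its 1357 tested regions 9.43% fell and 6.12% rose (beside 4.98% and 11.5% of all), with a median LFC of -0.25 against 0.00 for all tested regions. The part of this shift in the Firre result was not tested. Regions along one lncRNA gene are not independent of each other.

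**Figure D4:**
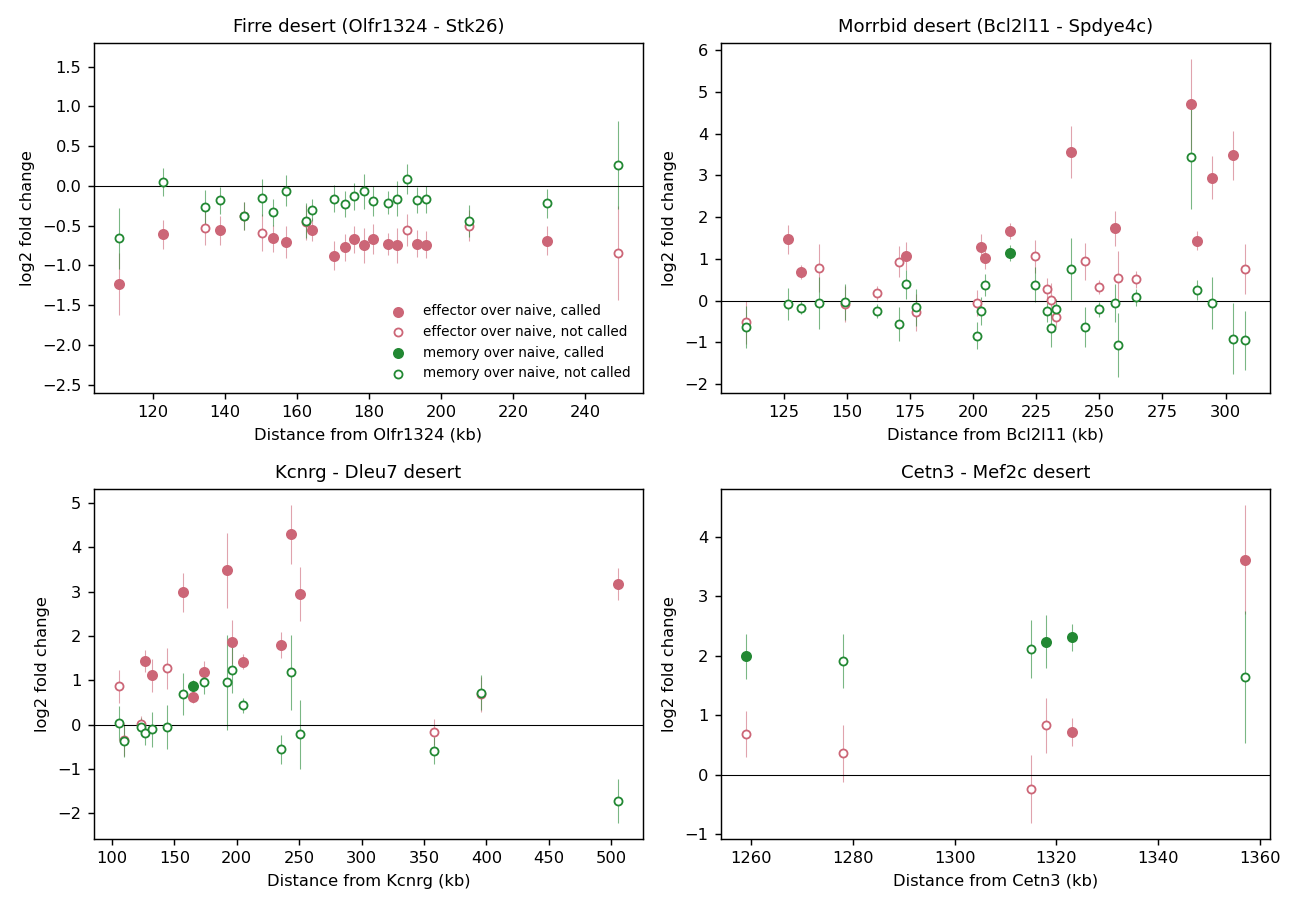
Log2 fold change of each tested region (points, bars 1 SE) against its distance in kb from the first flanking gene in 4 deserts, for effector over naive (red) and memory over naive (green). Filled points were called. The Firre desert lies below 0 in effector cells, the Morrbid and Kcnrg - Dleu7 deserts rise, and the Cetn3 - Mef2c desert is higher in memory cells.

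Desert regions beside lymphoid transcription factor genes rose more often than they fell, as did desert regions as a whole. Of the 50 genes on the list 24 flank a desert, with 406 tested regions and a median LFC of 0.08. Of these regions 75 rose (18.5%, beside 15.4% of all desert regions and 11.5% of all tested regions). Another 19 fell (4.68%, beside 7.75% and 4.98%). Beside Klf6 8 rose and 5 fell, beside Foxo1, a factor of quiescence, 6 and 1, beside Zeb2 6 and 2, and beside Prdm1, which encodes Blimp-1, 4 of 6 rose and none fell. Near Foxo1, chr3:52790804-52791596 had 0.881 and 0.176 CPM in naive, 14.1 and 8.13 in effector and 0.353 and 0.443 in memory cells, a 23.0-fold rise (95% counting interval 13.5 to 42.6, adjusted p = 3.34e-05). Near Klf12, chr14:100479397-100480616 rose 19.8-fold (10.8 to 40.1, adjusted p = 5.05e-05). The list without effector library 1 had 31 rises and 7 falls, and without naive library 1 it had 46 and 13.

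Immediate early genes and those of AP-1 and NF-kB, many of which are switched on within minutes of stimulation, bordered 157 tested regions. Of these 36 rose (22.9%, beside 15.4% of all desert regions) and 6 fell (3.82%, beside 7.75%), with a median LFC of 0.21. Beside Dusp4, another phosphatase of MAP kinases, 7 of 14 rose and 1 fell. The single desert region beside Nr4a3, an orphan nuclear receptor, chr4:47634695-47635995, had 0.640 and 0.411, then 11.9 and 8.54, then 1.41 and 0.295 CPM, a 19.9-fold rise (11.9 to 35.9, adjusted p = 6.56e-05). The list had 17 rises without effector library 1 and 16 without naive library 1.

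Cytokine and cytokine receptor genes bordered 47 tested regions. Of these 12 rose (25.5%, beside 15.4% of all desert regions and 11.5% of all tested regions). Another 3 fell (6.38%, beside 7.75% and 4.98%). Between Tnfsf18, the ligand of GITR, and Fasl, the ligand of the death receptor Fas, chr1:161635080-161637022 had 8.65 and 9.87 CPM in naive, 32.7 and 21.7 in effector and 13.8 and 12.7 in memory cells (LFC 1.55 ± 0.22, adjusted p = 0.000159). A region 101.0 kb from Icos, a costimulatory receptor of ILC2s, fell instead: chr1:61101277-61103651 had 44.8 and 54.3, then 20.4 and 29.7, then 52.5 and 54.1 CPM (LFC -0.98 ± 0.17, adjusted p = 0.000817). Residence and migration genes bordered 48 tested regions with 10 rises (20.8%, beside 15.4% of all desert regions) and 2 falls (4.17%, beside 7.75%). Of these rises 6 lay beside the chemokine receptor gene Cxcr4. The cytokine list had 4 rises without effector library 1 and 7 without naive library 1, and the residence list had 3 and 6.

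Receptors for prostaglandins, neuropeptides and nucleotides bordered 57 tested regions, of which 8 rose (14%) and 4 fell (7.02%), close to the 15.4% and 7.75% of all desert regions, with 4 rises without effector library 1 and 5 without naive library 1. The desert between Ptger4, the prostaglandin E2 receptor EP4, and Dab2 held 42 regions with 4 rises (9.76% of those tested) and 2 falls (4.88%), or 2 and 0 without effector library 1 and 2 and 1 without naive library 1. At 381.1 kb from Ptger4, chr15:5625295-5626266 had 0.721 and 0.705, then 7.47 and 5.84, then 1.85 and 1.58 CPM (LFC 3.21 ± 0.40, adjusted p = 6.33e-05). Beside P2ry1, an ADP receptor, the region over the Gm38326 promoter printed above (chr3:60787538-60788525) had 2.40 and 1.88, then 9.80 and 8.54, then 4.58 and 4.97 CPM (LFC 2.11 ± 0.30, adjusted p = 0.000204). The memory libraries there stood above the naive ones, but their LFC of 1.17 ± 0.31 did not pass (adjusted p = 0.138).

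Desert regions beside gene families better known from other tissues were also counted. Neuronal adhesion genes bordered 200 tested desert regions, with a median LFC of -0.26. Of these 25 rose (12.5%, beside 15.4% of all desert regions and 11.5% of all tested regions). Another 28 fell (14%, beside 7.75% and 4.98%). The desert between the cadherins Cdh10 and Cdh12 had 4 falls and no rise in 12 regions, and those beside the ephrin receptor Epha7 and the guidance factor Slit2 3 falls and no rise each. Some genes went against the list. The protocadherin gene Pcdh17 had 6 rises and no fall in 11 regions, Csmd3 had 3 and none in 6, and Kirrel3 had 7 and none in 23. The Kirrel3 regions are those of the Ets1 desert, which are also counted in the lymphoid list. Scaling changed which direction led in this list: 35 rose and 14 fell after scaling on the 20% highest regions, and 30 and 23 with total counts alone. There were 9 rises and 6 falls without effector library 1, 12 and 15 without naive library 1, and 14 and 15 without naive library 2. Developmental regulators bordered 149 tested regions with 20 rises (13.4%) and 9 falls (6.04%), near the 11.5% and 4.98% of all tested regions, or 12 of each under the loess offset, 6 and 2 without effector library 1, 11 and 12 without effector library 2 and 10 and 6 without naive library 1. The adhesion and developmental lists were not chosen for ILC2s, but they share regions with the lymphoid list. Zeb2, with 6 rises and 2 falls, is on both the developmental and the lymphoid list.

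Between the receptor tyrosine kinase genes Pdgfra and Kit, which mark fibroblasts and mast cells, chr5:75416454-75417443 had 1.60 and 3.41 CPM in naive, 19.0 and 12.1 in effector and 3.53 and 4.19 in memory cells (LFC 2.59 ± 0.34, adjusted p = 8.78e-05). The region at Kit itself had 113 and 99.1 CPM in naive and 77.0 and 69.5 in effector cells, and that at Pdgfra 42.6 and 39.2 against 35.0 and 31.7.

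Few desert regions were called between memory and naive cells. In all, 8 regions were higher (0.265%, beside 0.248% of all tested regions) and 6 lower (0.199%, beside 0.0714%) in memory than in naive cells. Changes of at least 2-fold were 7 gains (beside 0.204% of all tested regions) and 6 losses (beside 0.0607%). The 14 regions lay in 11 deserts. The calls leaned on 3 of the libraries. Of the 14 calls 2 were kept without naive library 1, 4 without naive library 2 and 2 without memory library 2, against 11 without memory library 1, 13 without effector library 1 and 14 without effector library 2. The counts were then 2 higher and 0 lower regions without naive library 1, the same numbers without memory library 2, 8 and 1 without naive library 2, and 17 and 14 without memory library 1. DESeq2 called 20 higher and 7 lower.

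The clearest memory gain lay between Cetn3 and Mef2c, a transcription factor gene of muscle, neurons and lymphocytes. At 382.8 kb from Mef2c, chr13:83119880-83121264, which covers the Gm33073 promoter printed above, had 4.72 and 5.52 CPM in naive, 8.96 and 8.02 in effector and 21.9 and 29.1 in memory cells. The groups did not overlap, and memory libraries were highest. The memory LFC against naive was 2.31 ± 0.23 (adjusted p = 0.000658) and against effector 1.59 ± 0.22 (adjusted p = 0.00011). The call against naive held without any single library, whereas the smaller effector rise (LFC 0.72 ± 0.23, adjusted p = 0.042) was lost without any one of the naive or effector libraries.

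Its tested neighbours were also higher in memory than in naive cells. Of the 7 regions in this desert 6 were tested, and each of the 6 had a higher memory than naive level, 3 of them called. From naive to effector cells 5 had an LFC above 0 and 1 below, and from effector to memory cells the numbers were also 5 and 1. The desert was named for its number of memory-versus-naive calls, so these counts follow in part from that choice. chr13:83055945-83057035 had 1.36 and 1.41, then 2.66 and 1.83, then 5.20 and 5.81 CPM (memory LFC 1.99 ± 0.38, adjusted p = 0.0295), and chr13:83115419-83116168, also in Gm33073, had 1.04 and 1.88, then 3.38 and 1.95, then 4.41 and 9.50 (LFC 2.24 ± 0.44, adjusted p = 0.0391). The desert summed to 9.13 and 11.5 CPM in naive, 19.6 and 15.2 in effector and 39.1 and 54.2 in memory cells, with no overlap of the groups. Called regions here were 1 without naive library 1, 1 without memory library 2 and 2 without naive library 2.

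Further memory gains lay at regions whose effector levels were also above the naive ones. At the Lncpint and Cxcr4 regions below, the effector LFCs against naive were 0.81 ± 0.19 and 1.12 ± 0.24. Without effector library 1 they were 0.54 and 0.91, and neither effector rise was then called. In Lncpint, a lncRNA gene induced by p53, chr6:31168746-31170364 had 11.3 and 11.2 CPM in naive, 23.1 and 16.4 in effector and 29.6 and 29.0 in memory cells (memory LFC 1.38 ± 0.19, adjusted p = 0.00452), and this call held without any single library. Beside Cxcr4, chr1:128770561-128771458 had 5.76 and 7.99, then 17.0 and 13.1, then 16.2 and 21.7 CPM (memory LFC 1.46 ± 0.24, adjusted p = 0.0128). The Cxcr4 call was lost without naive library 1 (adjusted p = 0.150) or memory library 2 (0.184).

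The losses in memory cells were led by chr19:15751420-15752746 between Tle4, a corepressor, and Psat1, an enzyme of serine synthesis. It had 18.1 and 14.9 CPM in naive, 18.1 and 18.7 in effector and 6.08 and 5.76 in memory cells, so only the memory libraries were low. The memory LFC was -1.48 ± 0.21 (adjusted p = 0.00525), and the call was lost without naive library 1 (0.0659) or memory library 2 (0.0848). Beside Sgk1, a kinase of the PI3K pathway, chr10:21686953-21690305 had 20.8 and 22.3, then 12 and 16.2, then 9.08 and 9.99 CPM (memory LFC -1.17 ± 0.21, adjusted p = 0.0191). That call was lost without any one of the naive and memory libraries, with adjusted p from 0.0508 to 0.138.

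In the desert between Ndfip2 and Spry2, an inhibitor of receptor tyrosine kinase signalling, all 12 regions had a lower memory than naive level and 2 were called. chr14:105684038-105685450 had 16.9 and 19.3, then 20.6 and 23.1, then 9.96 and 6.70 CPM (memory LFC -1.14 ± 0.22, adjusted p = 0.0295). The sums were 102 and 104 CPM in naive, 80.9 and 86.3 in effector and 69.6 and 49.0 in memory cells. The groups did not overlap, and neither call was left without naive library 1, naive library 2 or memory library 2. The remaining losses lay between Bcl11a and Fancl, where 14.5 and 14.7 CPM in naive became 6.88 and 6.36 in effector and 7.32 and 4.04 in memory cells, and between Bambi and Lyzl1. Each of these 2 calls was lost without naive library 1, naive library 2 or memory library 2.

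**Figure D5:**
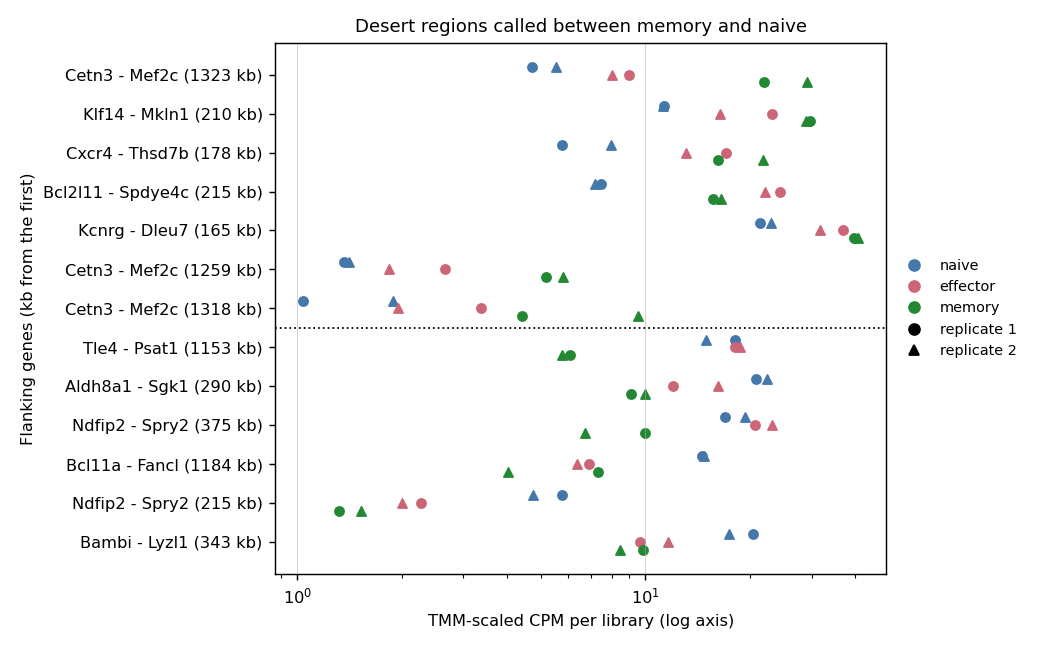
TMM-scaled CPM of each library (log axis) for 13 of the 14 desert regions called between memory and naive cells, 7 higher above the dotted line and 6 lower below it. Colours give the group and shapes the replicate. At the region between Tle4 and Psat1 the memory libraries alone are low.

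Between effector and memory cells 288 desert regions were higher in memory (9.54%, beside 7.72% of all tested regions) and 523 lower (17.3%, beside 13.6%). At least 2-fold changes made up 106 (beside 1.09% of all) and 451 (beside 11.4%) of these. This comparison shares its effector libraries with the first, so the 2 counts are not independent. Without effector library 1 there were 81 higher and 245 lower regions, and without memory library 1 180 and 421. Scaling on the 20% highest regions gave 124 and 710, and total counts alone 179 and 588. Beside Sox9, a developmental transcription factor, chr11:113060635-113061709 had 4.48 and 2.82 CPM in naive, 23.9 and 18.4 in effector and 3.44 and 1.77 in memory cells (LFC -3.08 from effector to memory, adjusted p = 1.77e-05). Beside Npy, which encodes neuropeptide Y, chr6:49987257-49988759 had 1.52 and 1.29, then 13.4 and 9.45, then 0.794 and 0.985 CPM (LFC -3.65, adjusted p = 1.34e-05). In both, memory and naive libraries were low and effector libraries high.

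Other regions were lowest in effector and highest in memory cells. At 312.7 kb from Mkln1, chr6:31085146-31086086 had 23.0 and 20.9 CPM in naive, 16.2 and 13.9 in effector and 36.4 and 38.8 in memory cells. The groups did not overlap, and the LFC from effector to memory was 1.32 (adjusted p = 5.85e-05). Beside Rbpj, chr5:53433220-53433847 had 12.5 and 14.2, then 6.23 and 7.27, then 17.7 and 25.8 CPM (LFC 1.69, adjusted p = 9.6e-05). Their memory LFCs against naive were 0.78 ± 0.16 and 0.71 ± 0.22 and neither was called.

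The desert that holds Lncpint also holds the genes of miR-29a and miR-29b, microRNAs that restrain T-bet and Eomes in T cells. Their mature 3p strands are shown because they share one seed (bases 2 to 8, in capitals).
mmu-miR-29a-3p: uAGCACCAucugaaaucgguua
mmu-miR-29b-3p: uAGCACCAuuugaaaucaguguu
The region over Mir29b-1 (chr6:31062866-31063735) had 18.8 and 18.9 CPM in naive, 15.7 and 14 in effector and 21.8 and 19.4 in memory cells, and its effector LFC of -0.35 ± 0.18 did not pass (adjusted p = 0.21). The region 1.83 kb from it (chr6:31064928-31066796) had 64.9 to 77.1 CPM over the 6 libraries and an effector LFC of -0.07 ± 0.13. Near other microRNA genes, 4.42 kb from Mir378d, chr10:126714813-126716016 had 3.12 and 4.29, then 8.89 and 9.22, then 3.44 and 3.10 CPM (effector LFC 1.28 ± 0.29, adjusted p = 0.00584, or 0.0711 without naive library 1). Within 5 kb of Mir3970, chr19:33159770-33160545 had 0.160 and 0.470, then 4.93 and 3.09, then 0.00 and 0.0985 CPM. That was an 11.7-fold rise from naive to effector cells (95% counting interval 6.15 to 24.9, adjusted p = 0.000686). This region overlaps Rnls, which the gene table does not class as protein-coding. At 4.80 kb from Mir125b-2 the level was 9.29 and 6.40, then 7.27 and 4.98, then 4.85 and 2.31 CPM, and no comparison was called.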

How the data were processed

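The deposited values are raw counts for each region, which the authors made, per the submitters' processing notes, with fastp, Bowtie2 2.5.3, MACS2 and bedtools 2.31.1 on mm10. How regions were merged, what was counted and whether starts count from 0 or 1 is not given in the sources used here. Distances used 21900 protein-coding genes of RefSeq GRCm38.p6, which has no strand. Counts were fitted in R 4.3.3 with edgeR 4.0.16 (filterByExpr, TMM, quasi-likelihood, robust, a term per group, 6 libraries, 3 groups), two-sided, checked on simulated counts. LFC is log2. Where a group had 20 counts or fewer, ratios of scaled counts with exact 95% intervals are given. Replicate libraries differed beyond counting noise.

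Named regions are, per comparison and direction, the 8 desert calls of at least 2-fold with the smallest adjusted p, 1 per desert, the 8 most open, up to 3 per list of 15 and those within 5 kb of a microRNA gene. Named deserts are those with the most regions or calls, and single neighbours were added after their values were seen. Members and lists were chosen with earlier results of these data known. The alternatives were RLE factors, total counts, a loess offset, TMM without the members, no filter, DESeq2 1.42.0, no robust step, only the groups compared, a replicate block, each library left out, other thresholds and distances, and 3 chosen after seeing the data: scaling on the 20% highest regions, and leaving out receptor loci or the ribosomal RNA region. Some named regions are given only by count, and a few regions and a marker gene are not reported here.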

Additional observations from a re-analysis of the deposited data

How the results depend on the processing

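With 2 libraries per group and 3 residual degrees of freedom, small changes could not be detected, and the lone library left in a group was assumed to vary like the others. None of the 125 results on named regions changed sign in any alternative. The median LFC of all desert regions did: from naive to effector cells it was -0.04, but 0.16 with TMM on the 20% highest regions, 0.06 with total counts, 0.05 without naive library 2 and 0.04 without effector library 1. From naive to memory it was -0.05, but 0.01 without naive library 2, and from effector to memory -0.08, but 0.08 under the loess offset and 0.01 without effector library 2. Regions that rose and fell from naive to effector cells, 464 and 234, ran from 183 to 502 and from 43 to 269 when a library was left out. From naive to memory, 8 and 6 became 2 to 17 and 0 to 14, and from effector to memory, 288 and 523 became 81 to 295 and 245 to 535. At an adjusted p under 0.01 the 6 counts were 271 and 94, 2 and 1, and 133 and 323. With the gene distance at 50 kb they were 821 and 352, 12 and 9, and 466 and 926, and at 200 kb 194 and 116, 5 and 4, and 139 and 204. Asking for 2-fold left 98 falls, and 106 higher from effector to memory. Members overlapping no annotated gene had 4 memory gains over naive and 191 over effector. Total counts gave 179 of the latter. TMM on the 20% highest regions gave 589 rises and 111 falls, and 124 and 710 from effector to memory, and rises were then 84.1% of the effector calls against 66.5%. DESeq2 gave 20 memory gains over naive, and no robust step 3 losses. The desert share of counts differed by -0.17 points between memory and effector cells, or by -0.30 points with 50 kb. The cause of these shifts was not tested.

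Replicate numbers are shared by the groups, but the labels do not say that they pair samples. With the number as a replicate block 604 and 449 regions rose and fell in effector cells, 55 and 63 in memory against naive, and 460 and 677 from effector to memory. Same-numbered libraries correlated in their deviations at 0.235 (naive and effector), 0.271 (naive and memory) and 0.188 (effector and memory) over 56007 regions. Of 125 results on named regions, 19 lost their call without effector library 1, 16 without naive library 1 and 0 with the block.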
